A study of Mus musculus with 6 samples.

Results

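The integrated stress response genes described here are 10 genes chosen by name for their place in the response to stress of the endoplasmic reticulum (ER) and to amino acid shortage. They were all found among the 17577 genes listed for the libraries. *Eif2ak3* and *Ern1* encode ER stress sensors, *Atf4*, *Ddit3* and *Atf3* encode transcription factors, and *Asns*, *Trib3*, *Chac1*, *Ddit4* and *Sesn2* are genes that ATF4 and its partners are known to switch on. Their transcript levels were compared in fully grown germinal vesicle (GV) oocytes between *Bnc1*tr/tr mice and wild-type (WT) mice, with 3 libraries in each group. All mice were C57BL/6 J females of 12 weeks, primed with pregnant mare serum gonadotropin (PMSG), a hormone that drives follicle growth. *Bnc1*tr/tr mice are homozygous for a frameshift allele that truncates basonuclin 1, a zinc finger transcription factor of oocytes and epithelia. The allele is carried by every cell of the mouse, so the follicle cells around these oocytes were mutant as well. Each cDNA was made from 1 oocyte by the study's methods, and the labels do not say whether the 3 libraries of a group came from separate mice, so the p-values below measure the spread between these libraries, which may be technical in part.

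In the integrated stress response, kinases such as PERK (the product of *Eif2ak3*) sense a stress and phosphorylate the translation factor eIF2. General protein synthesis then slows, while *Atf4* mRNA, which carries short upstream reading frames, is translated more. ATF4 protein switches on genes of amino acid supply and, with lasting stress, *Ddit3*, which encodes CHOP. IRE1α, the product of *Ern1*, starts another branch by splicing *Xbp1* mRNA. Since the main switches act on translation, phosphorylation and splicing, gene-level transcript values do not measure whether the response was active, and the values below are transcript levels only. GV oocytes are transcriptionally near silent and live from stored mRNA, so a level in them reflects storage and decay as well as earlier transcription.

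Levels are in FPKM, fragments per kilobase of transcript per M (mega) mapped fragments. FPKM is a share of a library, so an amount per oocyte was not measured, and a smaller number of transcripts cannot be told apart from a larger total of other RNA. Fold changes are on the log2(FPKM + 1) scale, *Bnc1*tr/tr minus WT, and understate the change of low genes. A gene was called changed at an adjusted p under 0.05 in limma and an absolute log2 fold change over 0.5. Estimated from the steps of low values, depth was 13.4 to 21.5 M fragments per library, at which 3 fragments on 1 kb of transcript give 0.139 to 0.225 FPKM. Genes with a value above 0 numbered 15258 to 15736 in the *Bnc1*tr/tr libraries and 13896 to 14576 in the WT libraries, and the median gene tested had a log2 fold change of 0.15. *Bnc1* itself was lower in the mutant in every library, at 5.83 to 9.04 FPKM against 12.5 to 16.2 FPKM in WT (log2 fold change -0.89, SE 0.20, limma adjusted p = 0.00895).

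ATF4 pairs with C/EBP proteins on a composite site, the C/EBP-ATF response element. Reference promoters show which of the genes carry that site beside their start, so they are given for the 3 genes that hold a match and for the 3 whose transcripts were higher by the tests below. Each is the 250 bases before the annotated start, written 5′ to 3′ on the strand of the gene, from RefSeq on GRCm38.p6, and all 10 genes had an entry. The letters TGATGNAAN, with N for any base, were searched on both strands, and capitals mark the match. *Asns*, which encodes asparagine synthetase, is on the minus strand at chr6:7693210-7693459, and its match starts at -23. The *Chac1* window is on the plus strand at chr2:119350992-119351241, with a match to the opposite strand at -194. *Atf3* is on the minus strand at chr1:191183334-191183583, with a match to the opposite strand at -111.

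Asns: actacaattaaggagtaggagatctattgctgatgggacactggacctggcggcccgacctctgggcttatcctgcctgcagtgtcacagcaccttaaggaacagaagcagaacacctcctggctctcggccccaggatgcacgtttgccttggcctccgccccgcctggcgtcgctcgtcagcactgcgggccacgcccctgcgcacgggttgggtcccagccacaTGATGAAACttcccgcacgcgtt
Chac1: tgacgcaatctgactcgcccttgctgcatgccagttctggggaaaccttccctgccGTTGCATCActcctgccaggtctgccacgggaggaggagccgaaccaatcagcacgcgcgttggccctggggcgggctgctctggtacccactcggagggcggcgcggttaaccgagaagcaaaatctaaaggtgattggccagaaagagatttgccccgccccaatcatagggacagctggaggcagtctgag
Atf3: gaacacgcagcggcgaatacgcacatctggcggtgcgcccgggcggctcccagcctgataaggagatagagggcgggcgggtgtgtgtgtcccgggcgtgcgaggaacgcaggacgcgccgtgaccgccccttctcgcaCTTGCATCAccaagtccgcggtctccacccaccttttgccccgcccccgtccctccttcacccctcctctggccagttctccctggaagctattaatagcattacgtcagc

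The windows of *Ern1* (chr11:106487797-106488046), *Ddit4* (chr10:59951771-59952020) and *Trib3* (chr2:152344061-152344310), all on the minus strand, held no match to these letters and are shown in lower case throughout.

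Ern1: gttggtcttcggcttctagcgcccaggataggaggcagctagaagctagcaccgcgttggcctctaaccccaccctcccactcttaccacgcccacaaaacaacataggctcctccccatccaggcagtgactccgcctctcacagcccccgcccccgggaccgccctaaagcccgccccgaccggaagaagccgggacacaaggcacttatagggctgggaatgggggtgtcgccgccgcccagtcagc
Ddit4: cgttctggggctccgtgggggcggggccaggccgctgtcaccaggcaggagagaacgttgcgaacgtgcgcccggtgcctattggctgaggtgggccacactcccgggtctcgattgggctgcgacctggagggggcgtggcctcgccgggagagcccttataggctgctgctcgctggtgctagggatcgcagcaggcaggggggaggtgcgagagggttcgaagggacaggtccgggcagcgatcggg
Trib3: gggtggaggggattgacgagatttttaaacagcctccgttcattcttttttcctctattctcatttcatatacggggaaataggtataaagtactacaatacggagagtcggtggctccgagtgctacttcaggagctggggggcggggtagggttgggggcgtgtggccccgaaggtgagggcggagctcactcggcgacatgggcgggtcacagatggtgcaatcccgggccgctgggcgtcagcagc

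Over all 32851 promoter windows of this length, 3.44% held the C/EBP-ATF letters. No window of the 10 genes held the cyclic AMP response element TGACGTCA (1.55% of all windows) or the ER stress response element, which is CCAAT followed by 9 bases and CCACG (0.113% of all windows). The shorter TGACG, which is contained in TGACGTCA, was found before *Atf3*, *Chac1*, *Trib3*, *Asns* and *Atf4* and in 17.8% of all windows. A match is a description of letters in a window and not a site of binding, and sites outside the window were not searched. The 3 genes with the C/EBP-ATF letters were not the genes called higher in the mutant, and a relation between the letters and the differences was not tested.

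Levels of the 10 genes covered more than 3 orders of magnitude. In WT oocytes *Ddit3* was highest at 142 to 227 FPKM, followed by *Atf4* at 32.7 to 59.0, *Ern1* at 5.03 to 8.91 and *Eif2ak3* at 2.76 to 4.60 FPKM, with no overlap between neighbours in this order. Below them the WT ranges of *Asns*, *Atf3* and *Chac1* overlapped between 0.20 and 2.38 FPKM. *Ddit4* was at 0.41 to 0.46 FPKM, within the range of *Chac1*, and *Trib3* and *Sesn2* lay between 0 and 0.13 FPKM, at or near the level of a few fragments. The first 4 kept this order in *Bnc1*tr/tr, where *Asns* (1.76 to 2.78 FPKM) and *Chac1* (0.92 to 3.18 FPKM) overlapped with *Eif2ak3* (2.37 to 5.27 FPKM). *Ddit3* was an abundant transcript, above 96.0% of the listed genes in WT and above 97.0% in *Bnc1*tr/tr. *Atf4* was above 87.9% and 87.2% of them.

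**Figure D1:**
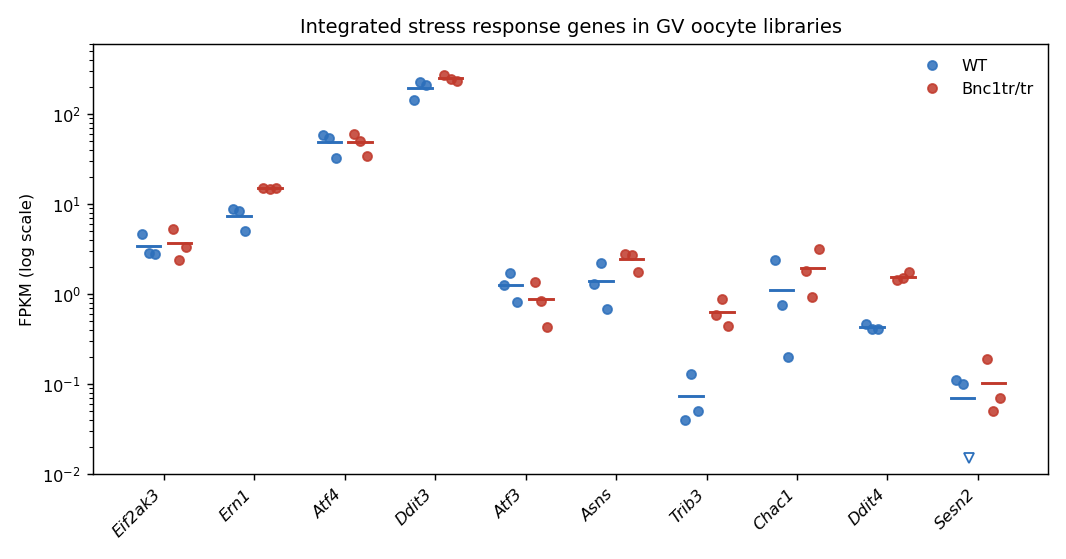
FPKM of the 10 integrated stress response genes on a log axis, with 1 point per library, WT in blue and *Bnc1*tr/tr in red, and a bar at each group mean. The open triangle marks a value of 0 (*Sesn2* in WT replicate 3). The groups do not overlap for *Ern1*, *Ddit3*, *Trib3* and *Ddit4*, where all red points lie above all blue points. Among all genes that average at least 1 FPKM, which leaves out *Trib3* and *Ddit4*, the groups are apart for 46.8%.

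Of the sensor genes, *Ern1* was called higher and *Eif2ak3* was not, and the difference between them was not tested. *Ern1* (chr11:106397620-106487796 on GRCm38.p6) was at 15.2, 14.6 and 14.9 FPKM in *Bnc1*tr/tr replicates 1 to 3 and at 8.91, 8.41 and 5.03 FPKM in WT replicates 1 to 3. The mutant libraries were close together, and all of them lay above all WT libraries. Group means were 14.9 ± 0.31 (SD, n = 3) and 7.45 ± 2.11 (SD, n = 3), a ratio of 2.0. *Ern1* was called higher, with a log2 fold change of 0.95 (SE 0.21, 95% interval 0.47 to 1.43, limma adjusted p = 0.00931), or 0.80 above the median gene. The call was kept in 16 of 16 alternatives, with adjusted p from 0.00758 to 0.0318. *Ern1* encodes the kinase and endoribonuclease IRE1α, so this is a change in the mRNA of the sensor, and its activity was not measured.

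*Eif2ak3* (chr6:70844484-70905241), which encodes PERK, was at 5.27, 2.37 and 3.33 FPKM in *Bnc1*tr/tr and at 4.60, 2.85 and 2.76 FPKM in WT. The groups overlapped, replicate 1 being the highest library in both. Its log2 fold change was 0.058 (95% interval -0.53 to 0.65, limma adjusted p = 0.891), so changes of either sign up to these bounds could not be told from 0. Of its 31-base words, 6.78% occur in transcripts of other genes, among them an antisense gene over its exon, and the libraries do not keep strand.

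The central transcription factor did not differ detectably. *Atf4* (chr15:80255184-80257545) was at 60.6, 50.3 and 34.0 FPKM in *Bnc1*tr/tr and at 59.0, 54.3 and 32.7 FPKM in WT, nearly the same 3 levels in each group. The log2 fold change was -0.0052 (95% interval -0.64 to 0.63, limma adjusted p = 0.991). Group means were 48.3 ± 13.4 and 48.7 ± 14.0 FPKM (SD, n = 3 each).

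*Ddit3* (chr10:127290793-127296291) encodes CHOP, a factor of the C/EBP family linked to cell death in lasting stress. Its level was 270.4, 248 and 234 FPKM in *Bnc1*tr/tr and 142, 227 and 212 FPKM in WT. All mutant libraries lay above all WT libraries, but the nearest were close and WT replicate 1 was far below the other two. The log2 fold change of 0.39 (SE 0.21, 95% interval -0.076 to 0.87) did not pass the test (limma adjusted p = 0.18), and it stayed between 0.19 and 0.52 in the 16 alternatives with no call. *Ddit3* shares exon sequence with *Mars* on the other strand, and *Mars* was at 1.68 to 5.26 FPKM in the 6 libraries, far below it.

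*Atf3* (chr1:191170296-191183333), an early stress factor of the CREB/ATF family, was at 1.37, 0.84 and 0.43 FPKM in *Bnc1*tr/tr and at 1.25, 1.69 and 0.81 FPKM in WT. The groups overlapped, with a log2 fold change of -0.27 (95% interval -0.80 to 0.26, limma adjusted p = 0.412). Under quantile normalization it was called lower (-0.84, adjusted p = 0.0126).

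Among the targets, *Ddit4* (chr10:59949675-59951770) had the smallest adjusted p in limma. *Ddit4*, also called REDD1, encodes an inhibitor of the growth kinase mTORC1. It was at 1.44, 1.5 and 1.74 FPKM in *Bnc1*tr/tr and at 0.46, 0.41 and 0.41 FPKM in WT, a ratio of means of 3.66. Every mutant library was above every WT library, and the libraries of a group were close to each other. The mean over all 6 libraries was 0.993 FPKM, just under the minimum of 1 FPKM, so the gene was outside the main test. Without the minimum it was called higher, with a log2 fold change of 0.84 (SE 0.079, limma adjusted p = 0.00182 over 17574 genes), and likewise with a minimum of 0.5 FPKM (adjusted p = 0.00333). Of 14 alternatives to that fit, 13 kept the call, and quantile normalization took it below the fold threshold (0.43, adjusted p = 0.0344). The values rest on roughly 10.3 to 13.6 fragments per WT library and 29.5 to 46.0 per mutant library, by the estimated depth. Counting error is large at so few fragments, so the closeness of the libraries and the small SE may overstate the precision.

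*Trib3* (chr2:152337425-152344060) encodes a pseudokinase that binds ATF4 and CHOP and restrains them. It was at 0.58, 0.87 and 0.44 FPKM in *Bnc1*tr/tr and at 0.04, 0.13 and 0.05 FPKM in WT. The groups did not overlap, and the WT values stand for about 1.1, 3.8 and 2.0 fragments, so no ratio is given. Its mean was under the minimum too. Without the minimum it was called higher (log2 fold change 0.60, SE 0.12, 95% interval 0.31 to 0.89, limma adjusted p = 0.0193). That call was lost when any library other than *Bnc1*tr/tr replicate 3 was left out: the log2 fold change was then 0.61 without *Bnc1*tr/tr replicate 1, 0.49 without *Bnc1*tr/tr replicate 2, and 0.57, 0.63 and 0.58 without WT replicates 1, 2 and 3, with adjusted p from 0.0295 to 0.0688, the 0.49 falling below the fold threshold. Quantile normalization gave 0.33 (adjusted p = 0.0738).

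*Asns* (chr6:7675165-7693209), the asparagine synthetase gene and a standard readout of ATF4, was at 2.78, 2.74 and 1.76 FPKM in *Bnc1*tr/tr and at 1.29, 2.2 and 0.68 FPKM in WT. The lowest mutant library lay below the highest WT library. The log2 fold change was 0.55 (SE 0.25, 95% interval -0.020 to 1.13) and did not pass the test (limma adjusted p = 0.128).

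*Chac1* (chr2:119351242-119354326), which encodes an enzyme that degrades glutathione, had the largest SE of the 10 genes on the log2 scale. Its level was 1.78, 0.92 and 3.18 FPKM in *Bnc1*tr/tr and 2.38, 0.76 and 0.20 FPKM in WT. The groups overlapped widely, with a log2 fold change of 0.55 (SE 0.39, 95% interval -0.34 to 1.44, limma adjusted p = 0.323). The interval spans changes of either sign, so these libraries could not settle its direction.

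*Sesn2* (chr4:132492804-132510456) encodes a leucine sensor upstream of mTORC1. It was at 0.19, 0.05 and 0.07 FPKM in *Bnc1*tr/tr and at 0.11, 0.10 and 0 FPKM in WT, where 3 fragments on its transcript give 0.0427 to 0.069 FPKM. A difference was not detectable at this depth: the fit without a minimum gave a log2 fold change of 0.044 (95% interval -0.18 to 0.27), and no ratio of means is given.

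Of the 10 genes, 7 averaged at least 1 FPKM over all libraries, and of these 1 (*Ern1*) was called higher and 0 were called lower. With limma at an unadjusted p under 0.05 the number was also 1, beside 4525 of all 10560 genes tested. At the thresholds of a call, 24.1% of all 10560 genes were higher and 7.68% were lower. Without a minimum, 3 of the 10 (*Ern1*, *Ddit4* and *Trib3*) were called higher, against 15.6% of 17574 genes. Mutant and WT ranges were apart for 2 of these 7 (*Ern1* and *Ddit3*), against 46.8% of all genes tested. The counts among the 7 tested genes lie below these backgrounds and 3 of 10 lies above its own, and each count rests on 3 genes or fewer. The median log2 fold change of the 7 was 0.39, beside 0.15 for all genes tested. WT replicate 3 was the lowest WT library for 7 of the 10 genes and the highest for 0, and *Bnc1*tr/tr replicate 1 was the highest mutant library for 7.

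**Figure D2:**
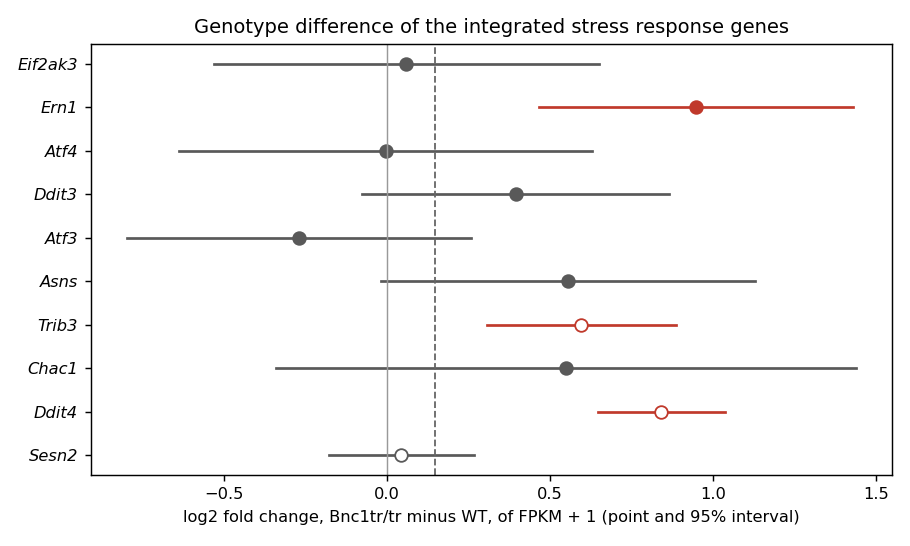
Log2 fold change of FPKM + 1, *Bnc1*tr/tr minus WT, for each of the 10 genes, with its 95% interval in limma. Filled points come from the test of genes that average at least 1 FPKM and open points from the fit without a minimum, red marks the genes called higher, and the dashed line is the median of all genes tested (0.15). *Ern1* (0.95), *Ddit4* (0.84) and *Trib3* (0.60) have intervals wholly above the dashed line, and the others include 0.

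Among relatives in the same gene families the groups were far apart for some. Of 10 family relatives, 9 were tested, and 5 were higher and 1 lower in *Bnc1*tr/tr (median log2 fold change 0.55). The 5 are 55.6% of the 9, beside 24.1% of all genes tested, and the 1 is 11.1%, beside 7.68%. Without a minimum, 5 of 10 were higher, beside 15.6% of all genes, and 1 was lower (median 0.32). *Ddit4l* and *Sesn1* averaged 0.36 and 0.37 FPKM in WT and passed the minimum through the mutant libraries. *Ddit4l*, the REDD2 gene and a paralogue of *Ddit4*, was at 11.4 to 17.8 FPKM in *Bnc1*tr/tr and at 0.09 to 0.67 FPKM in WT (log2 fold change 3.41, SE 0.23, limma adjusted p = 1.44e-05). *Sesn1*, a sestrin best known as a p53 target, was at 3.88 to 5.31 FPKM against 0.18 to 0.60 FPKM (log2 fold change 2.07, SE 0.19, adjusted p = 6.36e-05). In each mutant library *Ddit4l* was above *Ddit4* and *Sesn1* was above *Sesn2*. *Sesn1* was above *Sesn2* in each WT library as well, and *Ddit4l* was above *Ddit4* in WT replicate 1 only.

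In the tribbles family *Trib2* was by far the main transcript in both groups, at 17.1 ± 1.48 FPKM in *Bnc1*tr/tr and 8.78 ± 2.39 FPKM in WT (SD, n = 3 each), and was called higher (log2 fold change 0.91, adjusted p = 0.00973). *Atf2*, another CREB/ATF factor, was called higher as well (0.92, adjusted p = 0.00728). *Chac2*, the constitutive relative of *Chac1*, named after its values were seen, went the other way, at 5.63 to 9.66 FPKM against 12.4 to 15.4 FPKM (log2 fold change -0.76, adjusted p = 0.0226). That call was lost without *Bnc1*tr/tr replicate 1 or 2 or WT replicate 1 or 2. *Sesn3*, *Atf7* and *Asnsd1* had log2 fold changes of -0.052, 0.089 and -0.080 and were not called. Quantile normalization left 3 relatives higher and 1 lower, and *Trib2* lost its call there (adjusted p = 0.055).

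**Figure D3:**
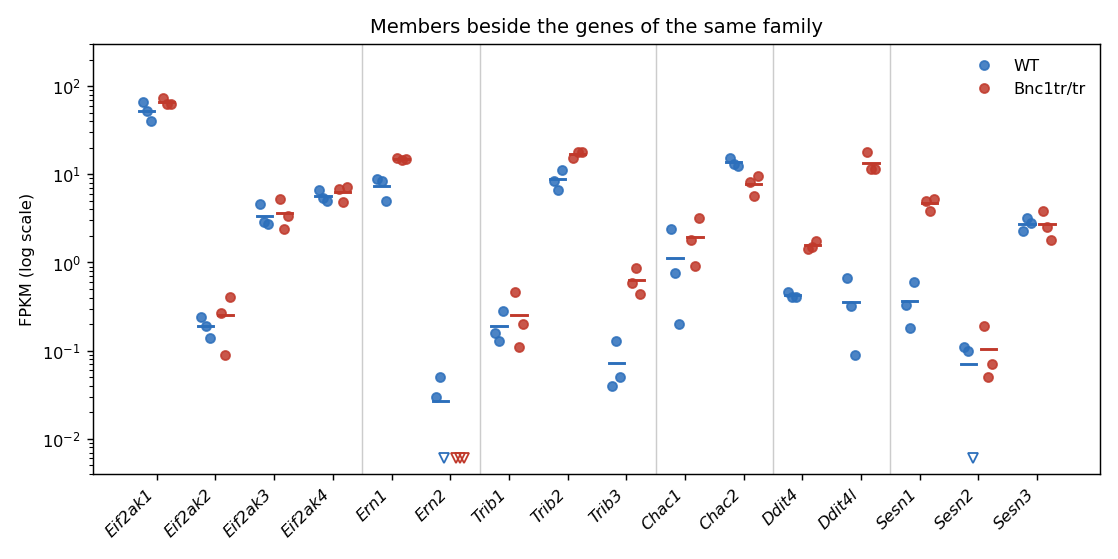
FPKM on a log axis of 6 members beside other genes of their families, with 1 point per library (WT blue, *Bnc1*tr/tr red), bars at the group means, and open triangles for values of 0. Relatives of the ATF factors and of *Asns* are not shown. *Ddit4l* and *Sesn1* rise from below 1 FPKM in every WT library to above 3 FPKM in every mutant library, while *Sesn3* and *Eif2ak4* overlap between groups.

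Among the genes of eIF2 itself, its kinases, its phosphatase and its exchange factor eIF2B, 15 of 16 were tested, 1 was higher and 1 was lower (median log2 fold change -0.11). Each is 6.67% of the 15, beside 24.1% higher and 7.68% lower of all genes tested. *Eif2b5*, the catalytic subunit of eIF2B, was higher at 4.82 ± 0.50 against 1.92 ± 0.57 FPKM (SD, n = 3 each, log2 fold change 1.01, limma adjusted p = 0.00431). *Eif2b2*, the beta subunit, was lower at 39.2 ± 1.82 against 56.7 ± 6.34 FPKM (-0.52, adjusted p = 0.0389). That lower call went with any 1 of *Bnc1*tr/tr replicates 1 to 3 or WT replicates 1 and 2 left out. The abundant *Eif2s2*, *Eif2b1* and *Eif2b3* had log2 fold changes of -0.42, -0.22 and -0.20 and were not called.

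The kinases and the phosphatase subunit were looked at after their values were seen. *Eif2ak1*, the heme-regulated kinase HRI, had the highest level of the kinases, with 65.9 FPKM in the mutant and 52.4 FPKM in WT, with a log2 fold change of 0.35 (95% interval -0.12 to 0.81). *Eif2ak4*, the amino acid sensor GCN2, was at 6.26 and 5.68 FPKM, and *Eif2ak2*, the RNA-activated kinase PKR, was at 0.26 and 0.19 FPKM. *Ppp1r15a*, the stress-induced phosphatase subunit GADD34 that ends the response, was at 31.9 and 22.0 FPKM (log2 fold change 0.58, 95% interval -0.027 to 1.19, adjusted p = 0.131). None of these was called.

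On the IRE1α and ATF6 side, 7 of 12 genes were tested, with 1 higher and 1 lower (median log2 fold change -0.068). Each is 14.3% of the 7, beside 24.1% higher and 7.68% lower of all genes tested. *Map3k5*, the kinase ASK1 downstream of IRE1α, was lower at 4.56 ± 1.03 against 12.8 ± 1.81 FPKM (SD, n = 3 each, log2 fold change -1.32, limma adjusted p = 0.000992). *Mbtps2*, a protease that releases ATF6, was higher at 10.5 against 5.94 FPKM (0.77, adjusted p = 0.0244), but 31.3% of its 31-base words lie in other genes, mainly *Yy2*. The *Mbtps2* call was lost when any library but WT replicate 3 was left out and under upper-quartile, median-ratio and quantile scaling. *Xbp1*, the substrate of IRE1α, also named after its values were seen, was at 0 to 0.64 FPKM in the 6 libraries, and *Atf6* was at 3.80 and 3.63 FPKM (log2 fold change 0.026).

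Genes of ER folding and ER-associated degradation moved in both directions. Of 22 genes, 20 were tested, with 2 higher and 6 lower (median log2 fold change -0.089). The 2 are 10% of the 20, beside 24.1% of all genes tested, and the 6 are 30%, beside 7.68%. *Dnajb9*, an ER co-chaperone and known XBP1 target, was higher at 40.2 ± 6.01 against 9.23 ± 0.23 FPKM (SD, n = 3 each, log2 fold change 2.0, limma adjusted p = 4.57e-05), with 10.8% of its 31-base words shared, mainly with a pseudogene. *Edem1*, which sends misfolded glycoproteins to degradation, was also higher (0.89, adjusted p = 0.0114), a call lost under quantile normalization (adjusted p = 0.0697).

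The lower genes were mainly chaperones. *Sdf2l1*, an ER co-chaperone, was lower at 7.52 ± 2.72 against 21.0 ± 2.33 FPKM (log2 fold change -1.42, adjusted p = 0.00217). *Hspa5*, which encodes the master chaperone BiP, was lower at 62.8 ± 13.6 against 119.5 ± 35.7 FPKM (-0.89, adjusted p = 0.032). *Pdia3*, *Canx*, *Hsp90b1* and *Pdia4*, named after their values were seen, had log2 fold changes of -0.80, -0.79, -0.72 and -0.58. The number called lower fell to 2 without *Bnc1*tr/tr replicate 1, *Bnc1*tr/tr replicate 2 or WT replicate 2, and to 3 without WT replicate 1, with a pseudocount of 0.1 or without a minimum. *Creld2*, *Pdia6* and *Calr*, the most abundant genes not called, had log2 fold changes of 0.067, 0.027 and 0.21.

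**Figure D4:**
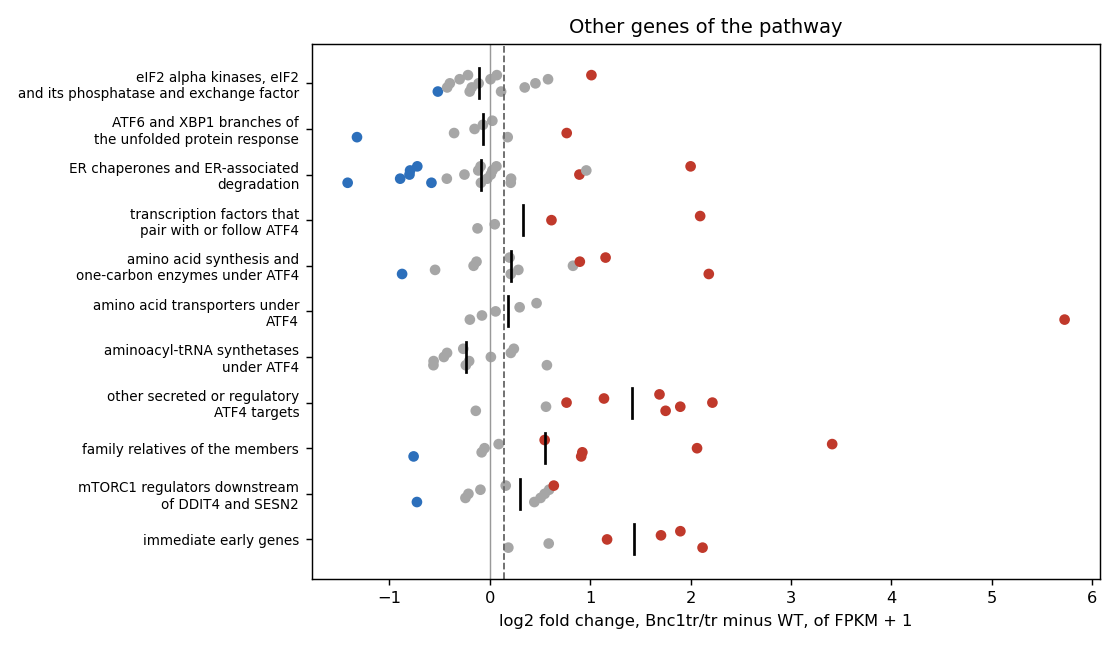
Log2 fold change of FPKM + 1, *Bnc1*tr/tr minus WT, of each tested gene in 11 lists of the stress response and of linked pathways, with red for genes called higher, blue for genes called lower, grey for the rest, a black bar at the list median and the dashed line at the median of all genes tested (0.15). Points of the tRNA synthetases are all grey, ER chaperones show 6 blue and 2 red points, and the list of secreted or regulatory targets has 6 red points of 8.

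Amino acid and one-carbon enzymes known as ATF4 targets were called at shares near those of all genes. Of 14 such enzymes, 11 were tested, with 3 higher and 1 lower (median log2 fold change 0.21, and -0.17 under quantile normalization). The 3 are 27.3% of the 11, beside 24.1% of all genes tested, and the 1 is 9.09%, beside 7.68%. *Shmt2*, the mitochondrial serine hydroxymethyltransferase, was at 40.4 to 56.2 FPKM against 6.00 to 13.6 FPKM (log2 fold change 2.18, SE 0.27, limma adjusted p = 0.00043), and part of its exon sequence is shared with *Ndufa4l2* on the other strand. The transaminase genes *Gpt2* and *Got1* were higher by 1.15 and 0.90 on the log2 scale. *Cth*, *Mthfd2* and *Phgdh* were not called, at 0.83, 0.21 and -0.13.

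Of 11 aminoacyl-tRNA synthetase genes tested, 0 were called in either direction, with a median log2 fold change of -0.24. Of all genes tested, 24.1% were called higher and 7.68% lower. At an unadjusted p of 0.05 in limma 3 of the 11 passed, beside 4525 of 10560 genes. Upper-quartile and median-ratio scaling called 3 of them lower, quantile normalization 4, leaving out WT replicate 3 also 4, and leaving out *Bnc1*tr/tr replicate 3 called 1 higher. *Nars*, *Iars* and *Wars* had log2 fold changes of -0.21, -0.43 and -0.56. For the amino acid transporters 1 of 6 tested was higher, *Slc43a1*, a carrier of large neutral amino acids, at 54.3 to 102 FPKM in *Bnc1*tr/tr and 0.16 to 1.10 FPKM in WT (log2 fold change 5.73, SE 0.29, adjusted p = 3.09e-06). The 1 is 16.7% of the 6, beside 24.1% of all genes tested. *Slc43a1* averaged 0.52 FPKM in WT and passed the minimum through the mutant libraries. The number of transporters higher was 2 without WT replicate 3, with a pseudocount of 0.1 and without a minimum. *Slc3a2*, *Slc7a11* and *Slc6a9* had log2 fold changes of 0.059, 0.30 and -0.077.

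Of 15 secreted and regulatory targets 8 were tested, 6 of them higher and 0 lower (median log2 fold change 1.42, or 0.97 with 5 higher under quantile normalization). The 6 are 75% of the 8, beside 24.1% of all genes tested. The number higher was also 5 under upper-quartile and median-ratio scaling, after rescaling to a common total and with another variance model. It was 4 without *Bnc1*tr/tr replicate 1, 6 without *Bnc1*tr/tr replicate 2 and 5 without any 1 other library. Without a minimum, 5 of 14 were higher (median 0.66), beside 15.6% of all genes. Some of the 8, *Stc2* and *Vldlr* included, averaged under 1 FPKM in WT and passed the minimum through the mutant libraries. *Eif4ebp1*, an inhibitor of cap-dependent translation, was at 20.8 to 36.4 FPKM against 3.46 to 6.62 FPKM (log2 fold change 2.22, SE 0.27, limma adjusted p = 0.00037). *Stc2*, a secreted glycoprotein of ER stress, was at 2.98 to 3.40 FPKM against 0, 0 and 0.47 FPKM (1.90, adjusted p = 0.000142). *Vldlr*, a lipoprotein receptor, was at 2.42 to 2.68 FPKM against 0.05 to 0.16 FPKM (1.69, adjusted p = 6.31e-05).

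*Gadd45a*, a growth arrest gene, was higher as well (log2 fold change 1.75, adjusted p = 0.000296), but 17.0% of its 31-base words lie in an antisense gene. *Adm2*, at 49.6 and 54.8 FPKM the most abundant of this list, and *Gdf15* were not called (-0.14 and 0.56). Among the 4 tested factors that pair with or follow ATF4, *Batf3* (2.10, adjusted p = 0.00021) and *Cebpd* (0.62, adjusted p = 0.0438) were higher, and *Cebpg*, a direct ATF4 partner, and *Nfe2l2* were not called (0.050 and -0.12). The 2 called are 50% of the 4, beside 24.1% of all genes tested. *Batf3* is known for dendritic cells and *Cebpd* for inflammation. *Cebpd* averaged 0.63 FPKM in WT and passed the minimum through the mutant libraries. The *Cebpd* call was lost without any 1 library other than *Bnc1*tr/tr replicate 2 and under upper-quartile, median-ratio and quantile scaling. It was also lost with another variance model, with the replicate block and without a minimum. *Cebpd* shares 14.3% of its words with *Spidr*.

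Downstream of *Ddit4* and *Sesn2*, 10 of 12 mTORC1 genes were tested, with 1 higher (*Mios*, 0.64, adjusted p = 0.0185) and 1 lower (*Nprl2*, -0.73, adjusted p = 0.0395), both subunits of the amino acid sensing machinery. Each is 10% of the genes tested here, beside 24.1% higher and 7.68% lower of all genes tested. The *Mios* call was lost without *Bnc1*tr/tr replicate 3 or WT replicate 2, where 0 genes were higher, as they were under upper-quartile, median-ratio and quantile scaling, and 3 were higher without WT replicate 1. The *Nprl2* call was lost without any 1 library other than WT replicate 3. *Rheb*, *Rps6kb1* and *Tsc1* were not called, with log2 fold changes of -0.093, 0.51 and 0.55.

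Over the union of these pathway and family lists, the immediate early genes below included, 107 genes were tested, and 26 were higher and 11 lower, with a median log2 fold change of 0.067, below that of all genes tested. The 26 are 24.3% of the 107, beside 24.1% of all genes, and the 11 are 10.3%, beside 7.68%. The number called lower was 3 without *Bnc1*tr/tr replicate 1, *Bnc1*tr/tr replicate 2 or WT replicate 2, 4 without WT replicate 1, 7 without *Bnc1*tr/tr replicate 3 and 18 without WT replicate 3.

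Some other transcripts moved with the genotype, and their part in the results above was not tested. Immediate early genes, which respond within minutes to many stimuli and to tissue handling, were higher for 4 of 6 tested (median log2 fold change 1.44), led by *Dusp1* at 155 to 293 FPKM against 25.7 to 64.7 FPKM (2.12, limma adjusted p = 0.00228) and followed by *Btg2* (1.90), *Fos* (1.71) and *Ier2* (1.17). The 4 are 66.7% of the 6, beside 24.1% of all genes tested. *Fos* and *Ier2* averaged 0.58 and 0.41 FPKM in WT and passed the minimum through the mutant libraries. The number called higher was 3 without *Bnc1*tr/tr replicate 1, WT replicate 2 or WT replicate 3, without a minimum, and under quantile normalization, where the *Ier2* call was lost (adjusted p = 0.194). Without a minimum 3 of 11 were higher (median log2 fold change 0.42), beside 15.6% of all genes. *Egr1* and *Zfp36* were not called (0.19 and 0.59). Oocyte identity was plain in every library, the summed level of 12 oocyte markers being 14560 to 16021 FPKM in *Bnc1*tr/tr and 16122 to 17808 FPKM in WT. *Mos* was higher and *Zp2* lower (0.90 and -0.74), and the other 10 markers were not called. Each is 8.33% of the 12, beside 24.1% higher and 7.68% lower of all genes tested. The *Mos* call was lost without *Bnc1*tr/tr replicate 1 or WT replicate 2, and the *Zp2* call without any 1 library other than WT replicate 3.

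Markers of follicle and stroma cells were low, with higher sums but not higher levels of every marker in the mutant libraries. The summed level of 10 granulosa and cumulus cell markers was 42.2 to 60.5 FPKM in *Bnc1*tr/tr and 19.5 to 36.8 FPKM in WT, mostly *Cyp19a1* (35.1 and 23.3 FPKM), and 3 of 5 tested were called higher (*Fshr*, *Cyp11a1* and *Kitl*, the last lost under quantile normalization at an adjusted p of 0.359). The 3 called are 60% of the 5, beside 24.1% of all genes tested. *Fshr* averaged 0.35 FPKM in WT and passed the minimum through the mutant libraries. *Inha*, the inhibin alpha subunit, was not called, at 0.18, 1.81 and 0.09 FPKM in *Bnc1*tr/tr and 6.78, 3.45 and 0.04 FPKM in WT (log2 fold change -1.11, adjusted p = 0.239). *Foxl2*, a defining granulosa cell gene named after its values were seen, was listed at 0 in 5 libraries and at 0.03 FPKM in WT replicate 1. *Hsd3b1*, *Fst* and *Lhcgr*, named likewise and under the minimum, averaged 0.033, 0.053 and 0 FPKM in *Bnc1*tr/tr and 0.84, 0.26 and 0.057 FPKM in WT. *Inhba*, also named so and under the minimum, averaged 0.68 and 0.35 FPKM. For 7 theca and stroma markers the sum was 6.53 to 10.3 FPKM against 1.73 to 2.27 FPKM, with *Dcn* higher (1.44), the 1 gene tested. For 10 immune and blood cell markers it was 1.99 to 61.5 FPKM against 1.39 to 3.0 FPKM, where the high value came with *Lyz2* at 48.0 FPKM in *Bnc1*tr/tr replicate 2, and 0 of 3 tested were called in limma (1 at an unadjusted p under 0.05, and 2 called without *Bnc1*tr/tr replicate 3).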

How the data were processed

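GV oocyte cDNA was prepared by the authors by a modified Smart-seq2 protocol. Polyadenylated RNA is copied with a template switch, amplified and made into transposase libraries that do not keep strand. The authors deposited 1 gene table per library in FPKM, with 17577 genes by NCBI Gene ID. The submitters' processing notes name HISAT2 2.0.4, Bowtie2 2.2.5, RSEM 1.2.12 and GRCm38.p6, without their roles. No counts or totals came with the values, so no count test was run. Depth was inferred from the step that 1 fragment makes in low FPKM values and entered no test. Floors cover counting error only, since amplified copies of a molecule are counted separately here.

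Symbols turned into dates by a spreadsheet (25) were restored through the Gene ID, and 183 of 191 genes of the lists were found. Groups came from the genotype in the labels, with 3 libraries each. Log2(FPKM + 1) of the 10560 genes that averaged at least 1 FPKM in the 6 libraries was compared with limma 3.58.1 in R 4.3.3, without covariates, and p-values were adjusted by Benjamini-Hochberg over all genes tested. A call needed an adjusted p below 0.05 together with a log2 fold change beyond 0.5 in either direction, as in the study's oocyte comparison. *Trib3*, *Ddit4* and *Sesn2* were under the minimum and are given from the fit without one (17574 genes). The fit was tested on simulated data. Gene positions and 31-base words shared with other genes came from GENCODE M21, and promoters from RefSeq. Alternatives were another pseudocount, other minimums, other scalings, another variance model, a replicate block and leaving out each library.

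The 10 genes and all lists were chosen with earlier results of these data known. Named in the text are the 10 genes and *Bnc1* and, from each list, up to 4 called genes with the largest absolute log2 fold change and up to 3 genes not called with the highest mean FPKM. Exceptions are marked as chosen after their values were seen. The result of 1 gene of the lists is not reported here.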

Additional observations from a re-analysis of the deposited data

How the results depend on the processing

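*Ern1* and *Bnc1* kept their calls in 16 of 16 alternatives. Of the 10 genes, 3 were higher without a minimum, 2 with a minimum mean of 0.5 FPKM, an alternative chosen after seeing the data, and 2 with the replicate block, against 1 as reported. Quantile normalization called 1 lower, *Atf3*. Pathway genes called higher were 17 with a minimum mean of 5 FPKM, where fewer genes are tested, against 26, and 19 to 26 when 1 library was left out. Those called lower were 11 as reported, 6 with a pseudocount of 0.1, 6 without a minimum, 17 with median-ratio scaling, 21 with quantile normalization, and 3 to 18 when 1 library was left out. Over all genes 3358 were called, 2046 with a minimum mean of 5 FPKM, and 2323 to 3539 when 1 library was left out. The cause of these shifts was not tested. The median log2 fold change of all genes, 0.15 as reported, was -0.015 with median-ratio scaling and -0.10 with quantile normalization.

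Values that changed sign were all of genes not called. *Eif2ak3* was at -0.049 with upper-quartile scaling, -0.085 with median-ratio scaling, -0.35 with quantile normalization, and -0.18 to 0.27 when 1 library was left out. *Atf4* was at 0.012 after rescaling to a common total and at -0.26 to 0.22 when 1 library was left out. *Sesn2* was at -0.074 with quantile normalization and at -0.012 to 0.078 when 1 library was left out. In all, 126 of 148 values of the 10 genes kept their direction and their side of the threshold, 7 lost a call (5 of *Trib3* with 1 library left out, and *Trib3* and *Ddit4* under quantile normalization), 2 gained one (*Atf3*, and *Asns* under the replicate block at an adjusted p of 0.0459) and 13 changed sign. Depth limits *Trib3*, *Sesn2* and *Ddit4*.

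Replicate numbers 1 to 3 occur in both genotypes. Deviations from the group means of same-numbered libraries had correlations of 0.28, -0.034 and 0.12, not all over 0.1, and the *Bnc1*tr/tr library of number 2 did not correlate best with its own number, so the numbers were not taken to pair libraries. Whether they mark a litter or a day is not given in the labels. With the replicate block 3733 genes were called, and the pathway counts were 28 higher and 11 lower.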
